A study of Mus musculus with 18 samples.

Results

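The 10 apolipoprotein genes Apoa1, Apoa2, Apoa4, Apoa5, Apob, Apoc1, Apoc2, Apoc3, Apoe and Apom were followed in mouse liver RNA, as the rows of the deposited count table that carry those symbols. They are 10 of 52636 gene IDs, and all 10 passed the filter on low counts that left 13958 genes for testing. The table holds 18 liver libraries in 6 groups of 3 biological replicates, all from livers taken at ZT8, 8 hours after lights on. The H-KO and H-WT livers came from mice aged 10 weeks of a line whose strain label names the Hnf4atm1.1Gonz and Albtm1(cre/ERT2)Mtz alleles. The BH-KO and BH-WT livers came from mice aged 10 weeks of a line whose label names Arntltm1Weit in addition. The BH-HF-KO and BH-HF-WT livers came from the same BH line at 45 weeks, after 35 weeks of a high-fat diet begun at 10 weeks of age. Per the labels, mice of all 6 groups received intraperitoneal tamoxifen (10 mg/mL in corn oil) on 5 days at 8 weeks of age. Tamoxifen switches on the Cre recombinase that sits at the albumin gene, which acts in hepatocytes. The strain label does not differ between KO and WT mice of a line, so it does not say how the WT mice differ. Hnf4a encodes a nuclear receptor of hepatocytes, and Arntl (Bmal1) encodes an activator of the circadian clock.

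Apolipoproteins are the protein coats of the particles that carry fat and cholesterol in blood, and the liver makes most of them. Apob is the large scaffold of very-low-density and low-density lipoproteins (VLDL and LDL). Apoa1 and Apoa2 are the main proteins of high-density lipoprotein (HDL), and Apom is a small HDL protein that carries sphingosine-1-phosphate. The C group and Apoa5 set how fast lipoprotein lipase clears triglyceride, and Apoe is the ligand by which remnants are taken up by receptors. HNF4A is a textbook activator of several of these genes, Apob and Apoc3 among them.

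On the mm10 build, 4 of the genes lie together on chromosome 9 between positions 46228580 and 46271919, in the order Apoa1, Apoc3, Apoa4 and Apoa5. Apoc3 lies on the opposite strand, with 2466 bases between the end of Apoa1 and the end of Apoc3. Apoc2, Apoc1 and Apoe lie together on the minus strand of chromosome 7 between 19671579 and 19699188. Apoa2 is on chromosome 1 (171225054-171226379), Apob on chromosome 12 (7977648-8016835) and Apom on chromosome 17 (35128997-35132050). The counts are sums over all exons of a gene. Of the exon bases of Apoc2, 79.5% are shared on the same strand with the annotated gene Gm44805, which had 0 counts in all libraries. The counter's treatment of shared reads was not given in the sources used here, so the low Apoc2 counts below are uncertain. On the opposite strand, 34.8% of the exon bases of Apoa4 are shared with Gm10680 (0 counts in all libraries) and 34.9% with Gm47528 (not in the table), and 20.8% of those of Apoa5 with Gm47544 (not in the table).

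The start regions of 5 members are printed because these members frame the results: Apoa2, Apom, Apob and Apoa4 had the 4 largest falls in H-KO livers, and Apoa1 had the smallest difference. Each window runs from 250 bases before to 50 bases after the RefSeq start (GRCm38.p6), 5′ to 3′ on the gene's strand. Capitals mark a match to CAAAGNNCA, the loose form of an HNF4A-type site, on either strand.
Apoa2, chr1:171224804-171225103, plus strand: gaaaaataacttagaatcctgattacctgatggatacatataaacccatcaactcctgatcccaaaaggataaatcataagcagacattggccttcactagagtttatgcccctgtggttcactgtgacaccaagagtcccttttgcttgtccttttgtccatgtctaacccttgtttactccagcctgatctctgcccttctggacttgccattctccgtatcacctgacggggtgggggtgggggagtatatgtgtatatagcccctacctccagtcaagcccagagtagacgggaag
Apom, chr17:35131752-35132051, minus strand: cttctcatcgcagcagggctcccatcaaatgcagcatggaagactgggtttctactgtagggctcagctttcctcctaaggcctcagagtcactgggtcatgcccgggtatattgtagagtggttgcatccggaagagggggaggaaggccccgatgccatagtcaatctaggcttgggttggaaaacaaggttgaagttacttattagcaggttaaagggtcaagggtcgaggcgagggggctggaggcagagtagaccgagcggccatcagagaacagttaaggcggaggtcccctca
Apob, chr12:7977427-7977726, plus strand: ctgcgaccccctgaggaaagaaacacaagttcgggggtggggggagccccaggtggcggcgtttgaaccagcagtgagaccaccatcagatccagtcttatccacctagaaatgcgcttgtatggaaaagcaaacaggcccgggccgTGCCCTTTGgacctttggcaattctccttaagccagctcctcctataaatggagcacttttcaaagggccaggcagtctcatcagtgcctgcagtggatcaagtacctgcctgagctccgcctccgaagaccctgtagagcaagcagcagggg
Apoa4, chr9:46240594-46240893, plus strand: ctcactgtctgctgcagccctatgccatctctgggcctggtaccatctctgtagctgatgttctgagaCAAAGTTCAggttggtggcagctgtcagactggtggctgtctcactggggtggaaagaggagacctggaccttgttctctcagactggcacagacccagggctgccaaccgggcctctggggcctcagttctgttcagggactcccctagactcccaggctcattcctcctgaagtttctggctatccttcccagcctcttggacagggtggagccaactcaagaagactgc
Apoa1, chr9:46228380-46228679, plus strand: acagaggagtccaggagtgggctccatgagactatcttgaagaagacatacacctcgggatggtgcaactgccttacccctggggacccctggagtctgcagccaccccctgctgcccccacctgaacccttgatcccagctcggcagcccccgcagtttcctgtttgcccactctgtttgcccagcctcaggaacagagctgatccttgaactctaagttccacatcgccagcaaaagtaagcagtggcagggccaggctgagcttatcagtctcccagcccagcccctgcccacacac
RefSeq windows were at hand for 8 of the 10 genes, 12 windows in all. The exact HNF4A-type strings CAAAGTCCA and CAAAGGTCA, searched on both strands, were in none of the 12 windows and in 0.475% and 0.478% of 32851 mouse windows of the same length. The looser CAAAGNNCA was searched after those strings gave no match. It was in 2 of the 12 windows, those of Apoa4 (CAAAGTTCA, 182 bases before the start) and Apob (TGCCCTTTG, the minus-strand form, 103 bases before the start), and in 6.36% of all windows. The E-box CACGTG, the string that the clock factor BMAL1 binds with its partner, is the same on both strands. It was in both overlapping windows of Apoa5 and in 7.15% of all windows. AGGTCA, the core string of nuclear receptor sites, was in 2 of the 12 windows, 1 of Apoc2 and an upstream one of Apoa2, and in 16.3% of all windows. Letters that match a motif are a description of the window only, and binding was not measured. The search used these strings alone, so a window without a match was not shown to lack a site.

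Total counts per library ranged from 6846471 to 9816124. Levels are given as CPM, counts scaled to the library total times its TMM factor, which corrects for a few abundant genes. The factors ranged from 0.830 to 1.38 and were above 1 in the 3 H-KO libraries and in BH-KO replicates 2 and 3. Several libraries stood apart from their group or lacked a pattern of another KO group, and the cause was not tested. The library labelled BH-KO replicate 1 lay at −0.94 on the first principal component of all tested genes (47.3% of the variance), against 84.5 and 83.5 for the other BH-KO libraries and −28.1 to −0.26 for the BH-WT libraries. Hnf4a was at 866 CPM in that library, at 499 and 494 CPM in BH-KO replicates 2 and 3 and at 770 to 888 CPM in BH-WT. In the H line Hnf4a was at 564, 657 and 555 CPM in H-KO, against 801, 887 and 580 CPM in H-WT. These are counts over the whole gene, which cannot show whether part of it was deleted. Arntl was at 17.4, 22.3 and 24.01 CPM in BH-KO, against 0.42, 0.73 and 0.80 CPM in BH-WT, while Nr1d1, a clock gene that BMAL1 activates, was at 6.97, 6.07 and 5.63 CPM in BH-KO, against 129, 111 and 121 CPM in BH-WT. The libraries labelled BH-HF-KO lacked that pattern, with Arntl at 0.88 to 2.53 CPM and Nr1d1 at 62.4 to 81.5 CPM, against means of 1.47 ± 0.49 CPM and 44.3 ± 19.2 CPM in BH-HF-WT (SD, n = 3). H-WT replicate 3 alone had a high level of Xist (1082 CPM), the RNA that females make from their inactive X chromosome, while no other library exceeded 3.89 CPM.

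In H-KO livers 7 of the 10 apolipoprotein mRNAs fell and none rose. Apoa2, Apom, Apoa4, Apob and Apoc3 fell by more than 5-fold, Apoe and Apoc1 by less than 3-fold, and Apoa1, Apoa5 and Apoc2 did not pass the test. The test was edgeR's quasi-likelihood F-test over 13958 genes, with adjusted p under 0.05 as the threshold, and it called 19.1% of all genes lower and 15.8% higher in this comparison (2662 and 2208 genes). That split depended on scaling, with 2063 lower and 3338 higher with upper-quartile factors and 1294 lower and 5992 higher with plain totals, while the same 7 members fell under each. The median log2 fold change of the 10 members was −1.90, against −0.00 for all genes tested. In 8 members, the 7 that fell and Apoa5, every H-KO library was below every H-WT library, which held for 25.9% of all genes.

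**Figure D1:**
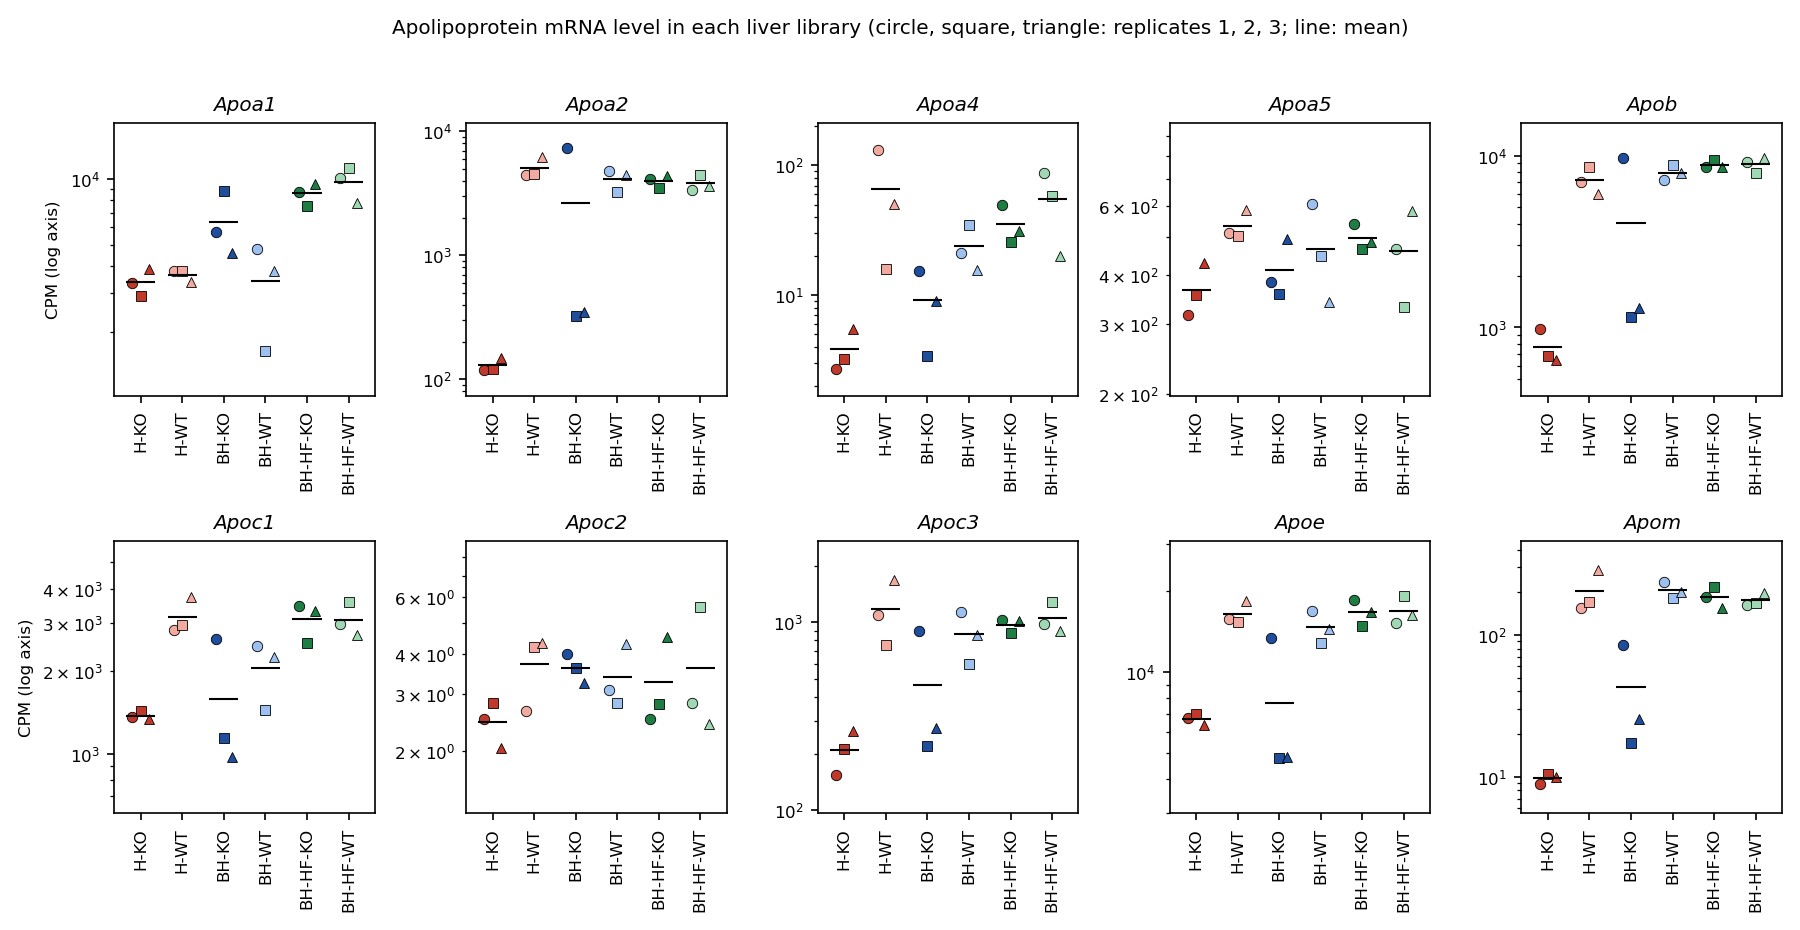
Level of each apolipoprotein mRNA in the 18 liver libraries, in CPM on a log axis with its own range for each gene. Points are libraries (circle, square and triangle for replicates 1, 2 and 3) and lines are group means. Apoa2 was at 118 to 149 CPM in H-KO and 4457 to 6174 CPM in H-WT, and BH-KO replicate 1 lay apart from the other BH-KO libraries for Apoa2, Apob and Apom.

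Among the HDL proteins, Apoa2 was at 118, 121 and 149 CPM in H-KO livers, against 4457, 4556 and 6174 CPM in H-WT livers. The groups did not overlap, and Apoa2 fell 39.2-fold (log2 fold change −5.29 ± 0.97 SE, adjusted p = 0.000921, edgeR). Per kilobase of exon, Apoa2 had the highest level of the 10 mRNAs in H-WT (9428 ± 1796 CPM per kb, SD, n = 3). In H-KO it stood at 240.5 ± 31.3 CPM per kb, below Apoe, Apoa1 and Apoc1. Apom was at 8.81, 10.5 and 9.91 CPM in H-KO, against 155, 172 and 287 CPM in H-WT. It fell 21.01-fold (log2 fold change −4.39 ± 0.49 SE, adjusted p = 3.14e-05, edgeR), the smallest adjusted p among the members in the fit of all libraries. The spread of each gene was estimated over all 18 libraries, BH-KO replicate 1 included. In the fit without that library Apoa2 was at −5.30 ± 0.22 SE (adjusted p = 2.30e-11, edgeR). Apom was then at −4.40 ± 0.25 SE (adjusted p = 1.63e-09, edgeR). Apoa1, the main HDL protein, did not pass. It was at 3329, 2906 and 3881 CPM in H-KO, against 3770, 3802 and 3364 CPM in H-WT. The groups overlapped, with a log2 fold change of −0.11 ± 0.33 SE (adjusted p = 0.827, edgeR). The sign of that small difference depended on scaling, at +0.04 with upper-quartile factors and +0.39 with plain totals, settings that moved the median of all genes by +0.15 and +0.50.

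Apob, the scaffold of VLDL, was at 977, 685 and 643 CPM in H-KO livers, against 6997, 8632 and 6012 CPM in H-WT livers. All H-KO libraries lay far below all H-WT libraries, and Apob fell 9.39-fold (log2 fold change −3.23 ± 0.61 SE, adjusted p = 0.000938, edgeR). In the fit without BH-KO replicate 1 the log2 fold change of Apob was −3.24 ± 0.20 SE. Apoa4, a protein of intestinal and liver particles, was low in all groups and the most variable in H-WT. It was at 2.70, 3.24 and 5.54 CPM in H-KO, against 132, 16.02 and 50.05 CPM in H-WT, so that the WT libraries alone spanned a wide range. Apoa4 fell 17.1-fold with an SE of 0.81 around its log2 fold change of −4.10 (adjusted p = 0.00167, edgeR).

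Of the genes that act on lipoprotein lipase, Apoc3, an inhibitor of triglyceride clearance, was at 154, 211 and 263 CPM in H-KO livers, against 1088, 761 and 1685 CPM in H-WT livers. It fell 5.62-fold (log2 fold change −2.49 ± 0.46 SE, adjusted p = 0.00084, edgeR). Apoc1, another inhibitor, was at 1357, 1435 and 1335 CPM in H-KO, against 2817, 2935 and 3722 CPM in H-WT, and fell 2.30-fold (adjusted p = 0.00836, edgeR). Apoa5, which promotes triglyceride clearance, was at 316, 355 and 430 CPM in H-KO, against 510, 502 and 584 CPM in H-WT. Its groups did not overlap, yet its log2 fold change of −0.53 ± 0.22 SE did not pass (adjusted p = 0.0729, edgeR). Apoc2, the activator of lipoprotein lipase, had only 21 to 26 counts per H-KO library and 20 to 34 per H-WT library, or 2.04 to 2.80 CPM against 2.65 to 4.33 CPM, and did not pass (adjusted p = 0.183, edgeR). On chromosome 9 the 4 neighbours thus had log2 fold changes of −0.11 (Apoa1), −2.49 (Apoc3), −4.10 (Apoa4) and −0.53 (Apoa5), of which the middle pair passed.

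Among the 10 genes, Apoe was the largest contributor of counts in H-KO and H-WT livers. It was at 6756, 6988 and 6359 CPM in H-KO livers, against 15703, 15394 and 18373 CPM in H-WT livers. The groups did not overlap, and Apoe fell 2.46-fold (log2 fold change −1.30 ± 0.33 SE, adjusted p = 0.00689, edgeR). The make-up of the apolipoprotein counts, a ratio within each library that needs no scaling, differed too. Apoe made 51.8 ± 3.2% of the summed counts of the 10 genes in H-KO, against 43.9 ± 1.9% in H-WT (SD, n = 3 each). Apoa1 made 26.0 ± 3.4% in H-KO, against 9.76 ± 1.22% in H-WT. Apoa2 made 0.997 ± 0.121% in H-KO, against 13.4 ± 1.7% in H-WT, and Apob 5.94 ± 1.38% in H-KO, against 19.3 ± 4.3% in H-WT. The 10 genes together held 1.74 ± 0.05% of all counts in H-KO, against 3.57 ± 0.23% in H-WT. An exact two-sided permutation test gave p = 0.1 for this share, the smallest value that 3 against 3 libraries can give.

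**Figure D2:**
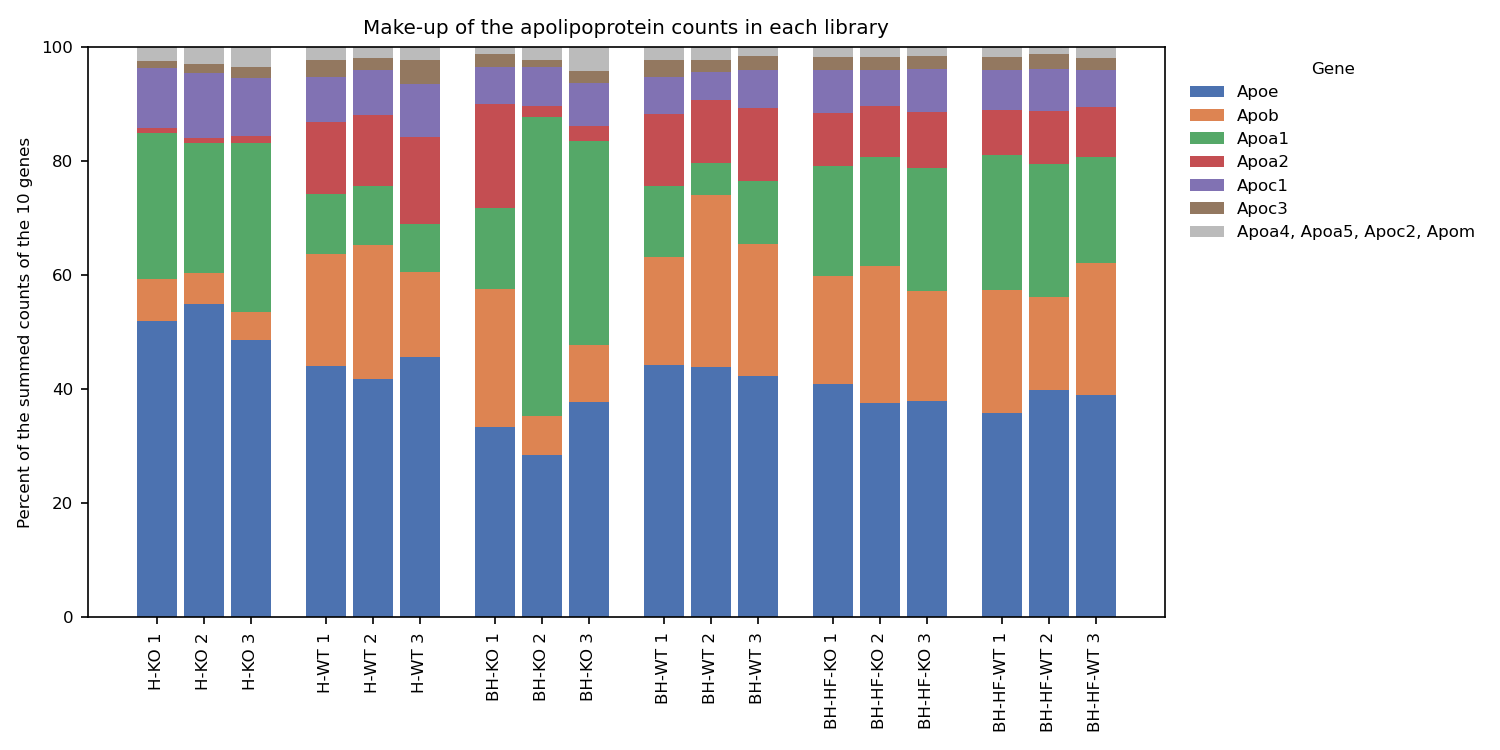
Make-up of the apolipoprotein counts in each library, as percent of the summed counts of the 10 genes (bars from 0 to 100). Apoa2 held 0.997% on average in H-KO and 13.4% in H-WT, and BH-KO replicate 1 differed from BH-KO replicates 2 and 3 in its Apoa2 and Apob segments.

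In the BH line 3 members passed and the replicates of BH-KO disagreed. Apom and Apoe fell and Apoa1 rose, against a background of 14.2% of genes lower and 14.4% higher by the same test (1985 and 2005 genes, or 1720 and 2560 with upper-quartile factors and 1204 and 4343 with plain totals). The median log2 fold change of the members was −0.77, against 0.03 for all genes. BH-KO and BH-WT libraries did not overlap for 2 members, Apom and Apoa4, both lower in BH-KO, as for 16.8% of all genes. Apom was at 85.2, 17.2 and 25.6 CPM in BH-KO livers, against 237, 181 and 200 CPM in BH-WT livers. It fell 4.87-fold (log2 fold change −2.28 ± 0.44 SE, adjusted p = 0.00218, edgeR), and all 3 BH-KO libraries, replicate 1 included, were below all BH-WT libraries. In a fit of BH-KO and BH-WT alone Apom did not pass (adjusted p = 0.0711, edgeR), nor did Apoe (0.238).

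Apoe was at 13383, 4788 and 4847 CPM in BH-KO, against 16895, 12849 and 14512 CPM in BH-WT. Replicate 1 lay inside the BH-WT range, and Apoe fell by 0.94 ± 0.33 SE on the log2 scale (adjusted p = 0.0436, edgeR). The call was lost when any of BH-KO replicates 2 and 3 or BH-WT replicates 1, 2 and 3 was left out (adjusted p up to 0.177, log2 fold change −0.69). Apoa1 was at 5699, 8815 and 4595 CPM in BH-KO, against 4759, 1631 and 3786 CPM in BH-WT. The groups overlapped, since BH-WT replicate 1 was above BH-KO replicate 3, and the rise was at the edge of the threshold (log2 fold change +0.91 ± 0.33 SE, adjusted p = 0.0498, edgeR). It did not pass without BH-KO replicate 2 (adjusted p = 0.237), BH-WT replicate 2 (0.173) or BH-WT replicate 3 (0.0829, edgeR). It also missed the threshold with DESeq2 size factors, either other filter on low counts, the replicate block (0.0661) or the fit of the compared groups alone.

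For Apoa2 and Apob, BH-KO replicate 1 lay apart from replicates 2 and 3. Apoa2 was at 7285, 323 and 347 CPM in BH-KO, against 4812, 3244 and 4415 CPM in BH-WT, so that replicate 1 was above and replicates 2 and 3 were below every BH-WT library. Apob was at 9633, 1156 and 1292 CPM in BH-KO, against 7173, 8787 and 7927 CPM in BH-WT, with the same split. With all libraries neither passed, at −0.65 ± 0.81 SE for Apoa2 (adjusted p = 0.571, edgeR) and −0.98 ± 0.56 SE for Apob (adjusted p = 0.2005, edgeR). Without BH-KO replicate 1, as 1 of the settings that left out each library in turn, 6 members fell and 1 rose, while 21.6% of 14415 genes fell and 19.5% rose. Apoa2 then fell by 3.64 ± 0.24 on the log2 scale (adjusted p = 9.88e-09, edgeR), Apom by 3.27 ± 0.27, Apob by 2.70 ± 0.23, Apoc3 by 1.80 ± 0.33, Apoe by 1.62 ± 0.19 and Apoc1 by 0.96 ± 0.22. Apoa1 rose by 0.98 ± 0.34 on the log2 scale without that library (adjusted p = 0.0292, edgeR). BH-KO replicate 1 was singled out with these levels seen. Adjusted p-values without it, here and elsewhere, are therefore descriptions and not tests free of that choice. When BH-KO replicate 2 was left out instead, 1 member fell and 0 rose, and without replicate 3, 1 fell and 1 rose.

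Apoc3 was at 893, 220 and 273 CPM in BH-KO, against 1129, 600 and 851 CPM in BH-WT, and Apoc1 at 2628, 1139 and 970 CPM in BH-KO, against 2475, 1442 and 2246 CPM in BH-WT. In both genes replicates 2 and 3 were below all BH-WT libraries and replicate 1 was not. Apoa4 was at 15.3, 3.42 and 9.06 CPM in BH-KO, against 21.3, 35.0 and 15.6 CPM in BH-WT, and passed neither with replicate 1 (adjusted p = 0.164, edgeR) nor without it (adjusted p = 0.104, edgeR). Apoa5 was at 358 to 494 CPM in BH-KO and 341 to 607 CPM in BH-WT, and Apoc2 at 3.25 to 4.01 CPM in BH-KO and 2.81 to 4.31 CPM in BH-WT. Neither passed with or without replicate 1. The members' share of all counts was 2.43 ± 0.97% in BH-KO, with a range of 1.67% to 3.52%, against 3.08 ± 0.28% in BH-WT (exact two-sided permutation test p = 0.4).

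**Figure D3:**
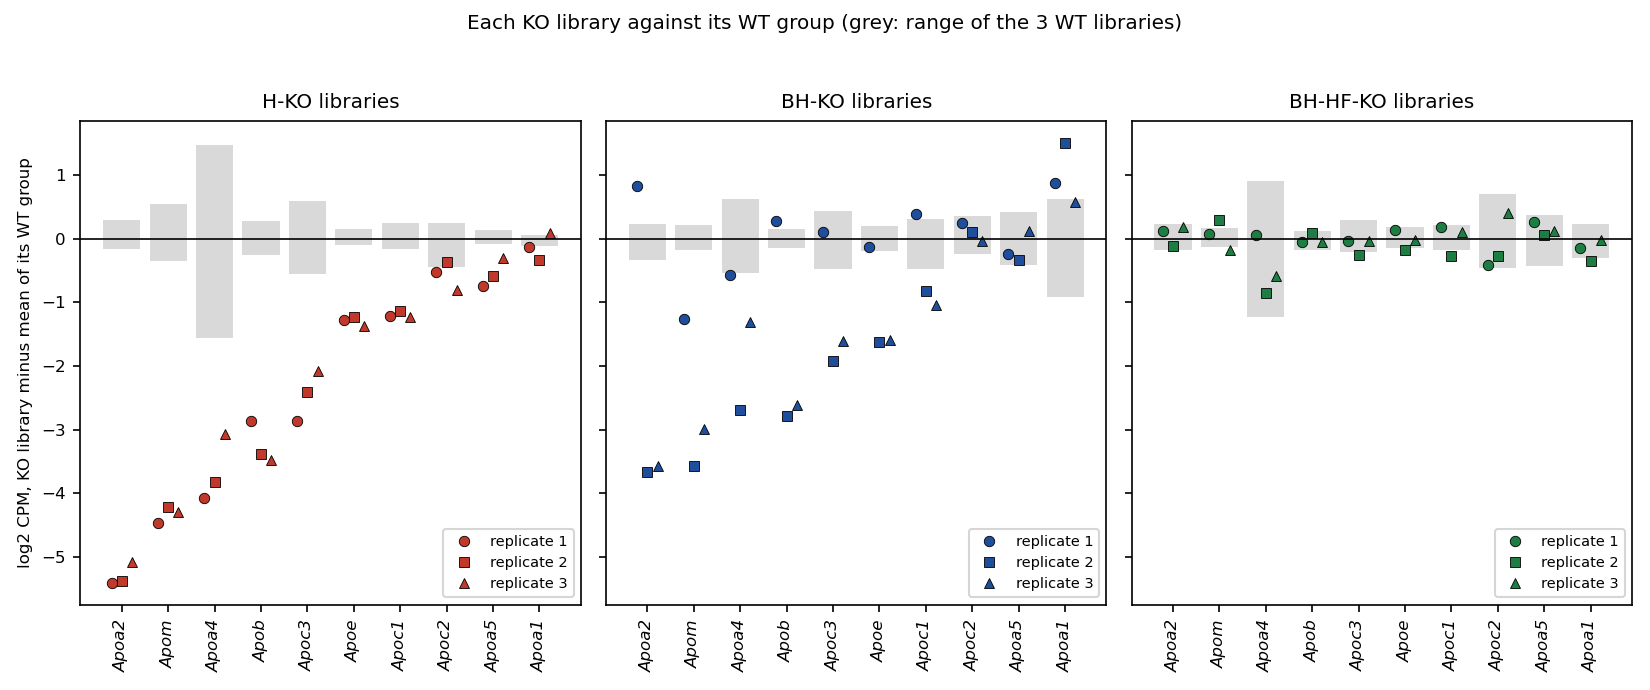
Each KO library against the mean of its WT group on the log2 CPM scale, by gene, with the range of the 3 WT libraries in grey. H-KO libraries lie close together, BH-KO replicate 1 (circle) lies apart from replicates 2 and 3 for Apoa2, Apob, Apoc3 and Apoe, and BH-HF-KO libraries lie near 0.

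The difference between the KO effects of both lines was tested directly. The KO effect on Apoa2 was 4.64 ± 1.19 SE log2 units higher in BH than in H (adjusted p = 0.0353, edgeR), the single member that passed among a background of 6.09% of genes. It was lost when any 1 of the H-KO, H-WT or BH-WT libraries was left out (adjusted p up to 0.0972) and held without each BH-KO library in turn. It also did not pass with the replicate block (4.25 ± 1.23 SE, adjusted p = 0.0691, edgeR). Without BH-KO replicate 1 the same difference was 1.66 ± 0.27 SE (adjusted p = 0.00201, edgeR), and Apom passed as well, at +1.13 ± 0.33 SE (adjusted p = 0.0452, edgeR), while 8.66% of genes passed. With H-WT replicate 3 left out as well, Apom did not pass (+0.81 ± 0.25 SE, adjusted p = 0.0675, edgeR). Apoa2 did pass without both libraries, at +1.49 ± 0.26 SE (adjusted p = 0.00363, edgeR). As a description, both mRNAs stood lower, relative to the mean of their WT group, in H-KO than in BH-KO replicates 2 and 3. For Apob the difference between lines was 0.53 ± 0.27 SE without replicate 1 and did not pass (adjusted p = 0.231, edgeR). For Apoa1 it was +1.10 ± 0.46 SE without replicate 1 and +1.02 ± 0.46 SE with it, and passed in neither case. The comparison sets KO against WT livers of 1 line beside those of another, so line and genotype cannot be told apart.

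In the BH line after high-fat diet no member passed, and no gene of the table did. Of 13958 genes 0% passed by edgeR, DESeq2 or limma-voom, and 488 had an unadjusted p under 0.05 by edgeR. The members' log2 fold changes ran from −0.65 ± 0.68 SE for Apoa4 to +0.11 ± 0.22 SE for Apoa5, with a median of −0.01. Apoa2 was at 4139, 3522 and 4357 CPM in the livers labelled BH-HF-KO, against 3384, 4464 and 3658 CPM in BH-HF-WT livers. Apob was at 8571, 9464 and 8554 CPM in BH-HF-KO, against 9163, 7864 and 9626 CPM in BH-HF-WT. Apom was at 185, 216.5 and 155.5 CPM in BH-HF-KO, against 161, 169 and 199 CPM in BH-HF-WT. The libraries overlapped in all 10 members, whereas groups did not overlap for 10.4% of all genes. As given above, Arntl and Nr1d1 in the libraries labelled BH-HF-KO lacked the BH-KO pattern. Albumin was at 34917 ± 5851 CPM in BH-HF-KO, against 78904 ± 10279 CPM in BH-HF-WT (SD, n = 3 each), with no overlap and no pass. The KO effect on Apom was 2.36 ± 0.60 SE log2 units higher in BH-HF than in BH (adjusted p = 0.0346, edgeR), the single member that passed among 6.1% of genes. It held without BH-HF-KO replicate 3 or BH-KO replicate 1 and was lost without any 1 of the other 10 libraries of the contrast (adjusted p up to 0.0867). Without BH-KO replicate 1 it was 3.34 ± 0.33 SE, and 6 members passed (Apoa2, Apob, Apoc1, Apoc3, Apoe and Apom), among 21.1% of genes.

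**Figure D4:**
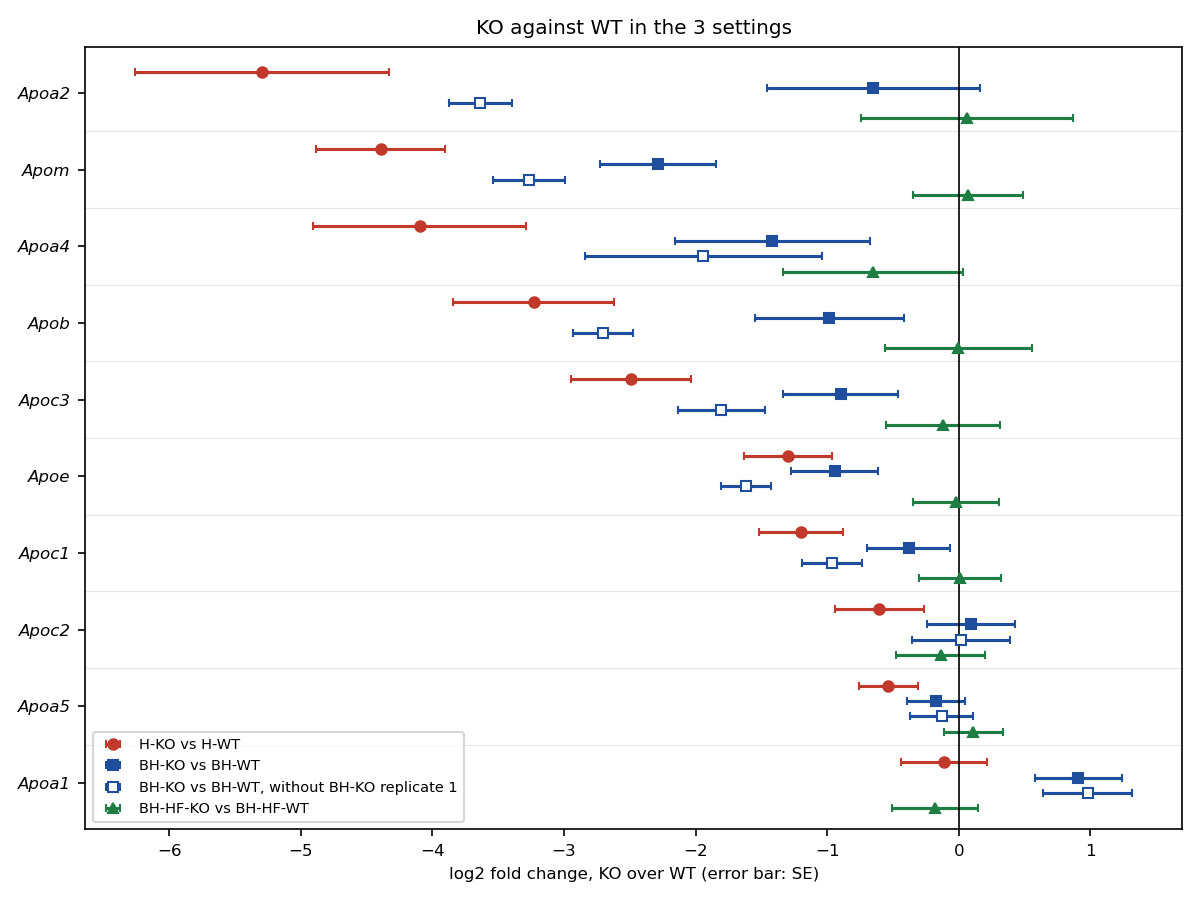
Log2 fold change of KO over WT for each member in the 3 settings, with error bars of 1 SE, and open squares for BH-KO without replicate 1. Filled squares for Apoa2 and Apob (−0.65 and −0.98) lie far from the open ones (−3.64 and −2.70), and triangles for BH-HF lie between −0.65 and 0.11.

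Between BH-WT and H-WT no member passed by edgeR, and 0.165% of genes (23 genes) did, while the members' log2 differences ran from −1.45 ± 0.70 SE (Apoa4) to +0.14 ± 0.56 SE (Apob). Between BH-HF-WT and BH-WT, where age and diet change together, Apoa1 rose and no other member passed, while 2.79% of genes rose and 4.21% fell. Apoa1 was at 10087, 11250 and 7783 CPM in BH-HF-WT, against 4759, 1631 and 3786 CPM in BH-WT, with no overlap, as for 15.7% of genes that lay higher. Its rise was 2.86-fold (log2 fold change +1.52 ± 0.33 SE, adjusted p = 0.0165, edgeR), and it did not pass without BH-HF-WT replicate 2 (adjusted p = 0.0633) or without BH-WT replicate 2 (0.0579). Its levels in the livers labelled BH-HF-KO (8695, 7542 and 9502 CPM) lay above those of every BH-WT library as well. The members' share of all counts was 3.84 ± 0.25% in BH-HF-WT, against 3.08 ± 0.28% in BH-WT (exact two-sided permutation test p = 0.1, the smallest possible). The share in H-WT, 3.57 ± 0.23%, also lay above that in BH-WT with no overlap (exact two-sided permutation test p = 0.1). The range in BH-HF-WT (3.60% to 4.10%) overlapped that in H-WT (3.38% to 3.82%). The 3 small intestine markers summed to 73.3 to 110.3 CPM in BH-HF-WT, against 17.6 to 20.9 CPM in BH-WT. Alpi had no count in either group, and the 1 marker tested (Fabp2) rose. The macrophage markers summed to 68.9 to 276 CPM in BH-HF-WT, against 270 to 1277 CPM in BH-WT, with 1 of 10 falling. The cholangiocyte markers summed to 21.6 to 35.4 CPM in BH-HF-WT, against 40.04 to 77.3 CPM in BH-WT, with 2 of the 5 tested falling and 1 rising, and 1 of 7 stellate and matrix markers fell and 1 of 7 hepatocyte markers rose. The part of these markers in the Apoa1 result was not tested.

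Per kilobase, the order of levels in H-WT ran from Apoa2 (9428 ± 1796 CPM per kb) and Apoe (7713 ± 766) through Apoc1 (4245 ± 661), Apoa1 (2949 ± 198), Apoc3 (1162 ± 462) and Apob (518 ± 95) to Apoa5 (211 ± 18), Apom (202 ± 71), Apoa4 (36.4 ± 32.9) and Apoc2 (4.58 ± 1.14). The ranges of mean ± SD overlapped between the neighbours Apoa2 and Apoe, Apoa5 and Apom, and Apoa4 and Apoc2. In H-KO the order began with Apoe (3134 ± 149 CPM per kb), Apoa1 (2728 ± 395) and Apoc1 (1850 ± 71), where those of Apoe and Apoa1 overlapped, as did those of Apoa2 (240.5 ± 31.3) and Apoc3 (207 ± 54). In BH-HF-WT Apoe (7912 ± 952 CPM per kb), Apoa1 (7853 ± 1427) and Apoa2 (7142 ± 1045) stood together at the top. In BH-KO the SD exceeded the mean for Apoa2 (4938 ± 7472 CPM per kb) and Apob (289 ± 348), where replicate 1 lay apart.

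Likeness of profiles was measured as the root-mean-square difference of centred log2 CPM over all 18 libraries, among 9351 other genes with a mean of at least 5 CPM. The nearest profile to Apoa2 was that of Pdzk1 at 0.26 log2 units, against an SD of 2.14 for Apoa2 itself, and Lipc, hepatic lipase, was the third at 0.27. Nearest to Apob was Pla2g12b (0.25), which acts in VLDL secretion, to Apom the asialoglycoprotein receptor subunit Asgr1 (0.28), to Apoe Galm (0.13) and to Apoc3 Msra (0.25). Apoe was the third nearest to its neighbour Apoc1, at 0.24, and the pair was the closest within the family. The nearest profiles to Apoa5, Apoa1 and Apoa4 lay at 0.18 (Pi4k2b), 0.33 (Grhpr) and 0.70 (Fads2), against SDs of 0.30, 0.76 and 1.62. These likenesses are descriptions over libraries that share the split of BH-KO replicate 1.

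Other genes of lipoprotein metabolism were described from lists chosen with earlier results known, and their counts stand beside 19.1% of all genes that fell and 15.8% that rose in H-KO, and 14.2% and 14.4% in BH-KO. The assembly list and the receptor list below had calls in H-KO at about those shares, which is no result about either list. In the fit without BH-KO replicate 1, 21.6% of 14415 genes fell and 19.5% rose in BH-KO. Mttp, the transfer protein that loads lipid onto Apob, was at 63.5 ± 8.0 CPM in H-KO, against 316 ± 6 CPM in H-WT (SD, n = 3 each), and fell by 2.31 ± 0.59 on the log2 scale (adjusted p = 0.00765, edgeR). Of 14 assembly genes tested, 4 fell and 1 rose in H-KO, with a list median of +0.09. The largest falls were Cideb (−3.81 ± 0.67 SE), which helps enlarge VLDL, and Pla2g12b (−3.67 ± 0.69 SE), and the rise was the sorting receptor Sort1 (+0.82 ± 0.20 SE). In BH-KO 3 assembly genes fell and 2 rose (median −0.33), Cideb and Sort1 among them, and 7 fell and 1 rose without BH-KO replicate 1. Mttp did not pass in BH-KO at −1.10 ± 0.57 SE (adjusted p = 0.159, edgeR) and fell by 2.82 ± 0.14 on the log2 scale without replicate 1.

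Of 16 enzymes and lipase regulators, 6 fell and 2 rose in H-KO (median −0.37). Lipc fell by 5.19 ± 0.88 and endothelial lipase Lipg by 4.50 ± 0.74 on the log2 scale, while Angptl4, an inhibitor of lipoprotein lipase, rose by 0.82 ± 0.27 and Pon3 by 0.45 ± 0.11. In BH-KO 5 fell and 1 rose (median −0.48), or 8 and 1 without replicate 1. Lipg fell by 4.37 ± 0.75 and the phospholipid transfer protein Pltp by 2.49 ± 0.56, and lipoprotein lipase itself, Lpl, rose by 3.26 ± 0.48 on the log2 scale, at 356 ± 97 CPM in BH-KO against 37.0 ± 9.0 CPM in BH-WT. Lpl was at 44.0 ± 3.2 CPM in H-KO, against 38.1 ± 22.3 CPM in H-WT, and did not pass there.

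Of 16 receptors and sterol transporters, 3 fell and 4 rose in H-KO (median +0.10). The phosphatidylcholine carrier Pctp fell by 1.48 ± 0.44, while Vldlr rose by 1.85 ± 0.48 and the sterol exporter Abcg1 by 1.79 ± 0.42 on the log2 scale. In BH-KO 7 fell and 2 rose (median −0.49), or 8 and 3 without replicate 1. Lrp2 (−1.82 ± 0.58 SE) and Apobr (−1.71 ± 0.62 SE), both near 1 CPM in BH-KO, had the largest falls, and Vldlr (+2.22 ± 0.54 SE) and the HDL receptor Scarb1 (+0.77 ± 0.23 SE) rose.

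Of 11 further apolipoproteins tested, 6 fell and 1 rose in H-KO (median −0.93), with Saa4 (−3.18 ± 0.83 SE) and Apoh (−2.38 ± 0.30 SE) the largest falls and Clu (+0.70 ± 0.23 SE) the rise. Without H-WT replicate 3, the library with Xist, Clu did not pass (adjusted p = 0.0531, edgeR), nor did Angptl4 of the list above (0.0925). In that fit 5 of these apolipoproteins fell, beside 2283 of all 14412 genes tested. In BH-KO 4 fell and none rose (median −0.38), or 6 fell and 1 rose without replicate 1. Of 24 transcription regulators, 12 fell and none rose in H-KO (median −0.67), Ppara (−2.51 ± 0.39 SE) among them. In BH-KO 13 fell and 2 rose (median −0.73), or 14 and 2 without replicate 1, with Nr1d1 (−4.28 ± 0.32 SE) and Cebpa (−2.20 ± 0.13 SE) the largest falls and Arntl (+5.00 ± 0.43 SE) and Foxa1 (+0.96 ± 0.27 SE) the rises. Hnf4a did not pass in H-KO (−0.35 ± 0.21 SE) or BH-KO (−0.40 ± 0.21 SE). Without BH-KO replicate 1 it fell in BH-KO by 0.72 ± 0.17 on the log2 scale (adjusted p = 0.00281, edgeR). That library was set apart partly by its high Hnf4a level, so the fall without it is no independent test of Hnf4a. No gene of these 5 lists passed in BH-HF-KO.

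Markers of cell types were described beside the apolipoproteins. Of all genes, 19.1% fell and 15.8% rose in H-KO, and 14.2% fell and 14.4% rose in BH-KO. The counts of markers that passed stand beside these shares. Alb fell by 2.75 ± 0.38 on the log2 scale in H-KO, at 11466 ± 1495 CPM against 77185 ± 5154 CPM in H-WT, and the 7 hepatocyte markers in the table summed to 26223 to 37349 CPM in H-KO, against 96110 to 106321 CPM in H-WT, with 2 of 7 passing. In BH-KO their sum was 36716 to 83271 CPM, against 105532 to 132658 CPM in BH-WT. The Cre recombinase named in the strain label sits at the albumin gene, and its part in the Alb levels was not tested. Alb made most of the sums in WT livers. Without it the other 6 markers summed to 16401 to 24607 CPM in H-KO, against 20963 to 27744 CPM in H-WT, and to 22936 to 41103 CPM in BH-KO, against 29699 to 35176 CPM in BH-WT, with overlap in both. In H-KO the log2 fold changes of Cps1 (+0.52 ± 0.24 SE), Fgb (+0.62 ± 0.38 SE) and Ahsg (+0.01 ± 0.24 SE), named after their values were seen, did not pass. The others were negative, and the median of the 7 markers was −1.38. In the fit without BH-KO replicate 1, Ttr (−3.36 ± 0.23 SE) and Serpina1a (−1.40 ± 0.24 SE) fell in H-KO. Hpx (−1.38 ± 0.54 SE) did not pass in that fit. These calls depended on the fit. Without H-WT replicate 3, Ttr (−3.38 ± 0.50 SE) and Hpx (−1.69 ± 0.60 SE) fell and Cps1 (+0.80 ± 0.24 SE) rose. Serpina1a (−1.51 ± 0.81 SE) did not pass without H-WT replicate 3. Fewer cells of a type and less RNA per cell cannot be told apart in bulk liver. The 10 macrophage markers summed to 154 to 242 CPM in H-KO, against 70.6 to 534 CPM in H-WT, with none passing, and to 58.1 to 342 CPM in BH-KO, against 270 to 1277 CPM in BH-WT, with 7 of 10 falling. Macrophages also express Apoe, and the part of these markers in the Apoe result was not tested. The 7 cholangiocyte markers summed to 110 to 171 CPM in H-KO, against 33.1 to 58.9 CPM in H-WT, with 3 of the 5 tested rising. The 6 endothelial markers summed to 115 to 129 CPM in H-KO, against 121 to 205 CPM in H-WT, and the 7 stellate and matrix markers to 185 to 210 CPM in H-KO, against 221 to 260 CPM in H-WT. The 3 small intestine markers in the table, of a tissue that makes Apoa4 and Apob, summed to 1.19 to 1.75 CPM in H-KO, against 30.7 to 49.2 CPM in H-WT, with Alpi at 0 in all H-WT libraries and Fabp2 falling. The part of these markers in the member results was not tested.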

How the data were processed

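Liver RNA of 18 mice was sequenced, and the authors deposited their raw read counts in a table of genes by libraries. Reads were aligned with STAR 2.6 to mm10, per the submitters' processing notes. The read counter, its annotation and its use of strand were not given in the sources used here. Groups and replicate numbers were taken from the labels. Counts were fitted with edgeR 4.0.16 in R 4.3.3: TMM factors, filterByExpr by group (minimum count 10, 13958 of 52636 IDs kept), 1 mean for each of 6 groups over all 18 libraries (12 residual degrees of freedom), robust two-sided quasi-likelihood F-tests of 7 contrasts, and Benjamini-Hochberg adjustment over all genes tested (threshold 0.05). SE is the log2 fold change divided by the root of F. A count of 0 allows up to 3 counts, or 0.264 to 0.479 CPM, which covers counting error only. Positions and exon lengths are from GENCODE M21. All 10 members are named; of each other list, up to 2 rises and 2 falls that passed in H-KO and BH-KO, and Hnf4a, Arntl, Mttp and Alb; some of these are not reported here. The members and lists were chosen with earlier results of these data known. Alternatives were other scalings (DESeq2 1.42.0 size factors, upper quartile, plain totals), no filter, a stricter filter (1 CPM in 3 libraries), DESeq2 and limma-voom (limma 3.58.1) as tests, the compared groups alone, a replicate block and each library left out.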

Additional observations from a re-analysis of the deposited data

Results flagged for a closer look

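In the fit of all libraries the KO effect on Apoa2 passed as different between the lines. The log2 fold change of BH-KO over BH-WT minus that of H-KO over H-WT was 4.64 ± 1.19 SE (adjusted p = 0.0353, edgeR interaction contrast over all libraries). Of the 10 members 1 passed, beside 6.09% of all genes. The call was lost with no filter, limma-voom, the replicate block or the compared groups alone. Over the settings that left out 1 library of the contrast, the adjusted p ran from 0.00201 to 0.0972, with 3 passing and 9 not. Apoa2 was at 7285 CPM in BH-KO replicate 1 and at 323 and 347 CPM in replicates 2 and 3, and the difference was 1.66 ± 0.27 SE without replicate 1.

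In the fit of all libraries the KO effect on Apom passed as different between the BH settings, which differ in diet and age. That of BH-HF minus that of BH was at 2.36 ± 0.60 SE (adjusted p = 0.0346, edgeR interaction contrast). Of the 10 members 1 passed, beside 6.1% of all genes. The call was lost with no filter or the compared groups alone. Over the settings that left out 1 library, the adjusted p ran from 3.17e-06 to 0.0867, with 2 passing and 10 not. The libraries labelled BH-HF-KO had Apom at 155.5 to 216.5 CPM, against 161 to 199 CPM in BH-HF-WT, and lacked the Arntl and Nr1d1 levels of BH-KO. The part of the label, the diet and the age in this difference cannot be told apart.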

How the results depend on the processing

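In H-KO against H-WT the members that passed were 7 under every scaling, filter and left-out library, 6 by DESeq2, which gave no adjusted p for Apoa2, and 8 (Apoa5 added) with the compared groups alone. BH-KO against BH-WT varied more, with 3 members passing in the fit of all libraries, 1 with no filter, 0 with the compared groups alone, 1 to 7 when 1 library was left out (7 without BH-KO replicate 1), and 7 with both that library and H-WT replicate 3 left out, a pair picked with the data in view. For the KO effect in BH minus that in H, 1 member passed, against 0 with no filter, limma-voom or the compared groups alone, 3 by DESeq2 (again with no adjusted p for Apoa2), 0 to 3 with 1 library left out and 1 without that pair. For the KO effect in BH-HF minus that in BH, 1 member passed, against 0 with no filter or the compared groups alone, 0 to 6 with 1 library left out, and 6 without the pair named above. In BH-HF-WT against BH-WT, 1 member passed, against 0 with the compared groups alone, 0 to 1 with 1 library left out, and 2 without that pair. In BH-HF-KO against BH-HF-WT no member passed in any setting. Over 1273 member log2 fold changes under alternatives, 44 lost and 28 gained the threshold, 42 differed in sign, and none of those 42 passed on either side. The cause of these differences was not tested. Leaving Alb and mitochondrially encoded genes out of the total moved the H-KO minus H-WT difference in the members' share of counts to −2.34 percentage points, against −1.82.

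Same-numbered samples of the groups compared did not deviate together (correlations of −0.24 to 0.06), so the numbers were not taken to pair them. With the replicate block, 7, 2 and 0 members passed in the H, BH and BH-HF comparisons of KO with WT, and 0 passed for the KO effect in BH minus that in H, where 1 passed without the block.

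Over all genes, 1094 passed in BH-KO against BH-WT with the compared groups alone, against 3990 in the fit of all libraries. For the KO effect in BH minus that in H, 850 genes passed, against 487 with plain totals, 516 with no filter, 490 with the compared groups alone and 1394 by DESeq2. For the KO effect in BH-HF minus that in BH, 851 passed, against 431 with the compared groups alone, 1315 by DESeq2 and 353 to 3047 with 1 library left out. In BH-HF-WT against BH-WT, 976 passed, against 1495 by DESeq2 and 220 to 1019 with 1 library left out. In BH-WT against H-WT, 23 passed, against 35 with no filter, 101 by DESeq2, 12 by limma-voom, 14 with the block and 7 to 18 with 1 library left out. In BH-KO against BH-WT that range was 2329 to 5917, and for the KO effect in BH minus that in H 347 to 1248. Leaving out BH-KO replicate 1 in comparisons that do not use it, the list counts without a library and the motif CAAAGNNCA were also chosen after the data were seen. With 3 libraries a group, and 17 to 45 counts of Apoc2 per library, small differences could not be detected.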
